A study of Mus musculus with 7 samples.

Results

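The platelet-derived growth factor (PDGF) genes are 4 ligand genes (Pdgfa, Pdgfb, Pdgfc and Pdgfd) and 2 receptor genes (Pdgfra and Pdgfrb), and all 6 were found among the 38579 gene entries of the deposited table by their symbols, with 1 row each. They were followed in 7 bulk RNA-seq libraries of primary mouse fetal mammary cells of the CD1 strain, taken at E17.5 (a day of gestation) and sorted by flow cytometry. The fMaSC fractions were 2 libraries of Sox10+EpCAM+ fetal mammary stem cells (fMaSC, an epithelial population enriched for stem cells, sorted here by a Sox10-Venus fluorescent reporter and the epithelial adhesion protein EpCAM) and 2 libraries of CD24+CD49f+ fMaSC, sorted by a pair of surface proteins. Their stromal counterparts were 1 library of EpCAM-negative stroma, from the Sox10 sort and without a replicate, and 2 libraries of CD24low stroma, from the CD24 sort. The column names of the table give all 7 libraries as lineage-negative, that is, depleted of cells bearing markers that the labels do not list, although the sample title leaves this out for replicate 1 of Sox10+EpCAM+ fMaSC. The labels call the libraries of a group biological replicates but do not say how many embryos went into each, so the p-values measure the spread between these libraries.

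PDGF ligands are secreted as disulphide-linked dimers that bind the receptor tyrosine kinases PDGFRα and PDGFRβ, which dimerise and phosphorylate each other. The PDGF-A and PDGF-B proteins are processed inside the cell, while PDGF-C and PDGF-D are released with an N-terminal CUB domain that extracellular proteases remove. In many embryonic organs the ligands come from epithelium, endothelium or neurons and the receptors from neighbouring mesenchyme, where PDGFRα marks many fibroblast precursors and PDGFRβ marks pericytes, vascular smooth muscle and other fibroblasts.

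Expression was deposited as FPKM (fragments per kilobase of transcript, scaled to the mapped total), a level per length that allows genes to be compared. Read counts were not used here. The steps between low values correspond to a depth of about 24.4 M to 37.1 M fragments per library, and mitochondrial genes took 19.0% and 15.6% of the summed FPKM in Sox10+EpCAM+ fMaSC and 17.9% and 9.94% in CD24+CD49f+ fMaSC, against 6.23% in EpCAM-negative stroma and 10.9% and 17.7% in CD24low stroma. The genes of the sorting markers (Epcam, Sox10, Cd24a and, for CD49f, Itga6) were higher in every fMaSC library than in every stroma library. Cd24a had 246 and 161 FPKM in CD24+CD49f+ fMaSC, against 5.97 to 12.1 FPKM in stroma. Itga6 had 77.2 and 100 FPKM in CD24+CD49f+ fMaSC, against 19.6 to 22.3 FPKM in stroma. Both Cd24a and Itga6 were higher still in Sox10+EpCAM+ fMaSC. Epcam had 219 and 230 FPKM in both Sox10+EpCAM+ fMaSC libraries, 137 and 88.5 FPKM in CD24+CD49f+ fMaSC, and 0.428 to 1.19 FPKM in the 3 stroma libraries. The fMaSC fractions were unlike in their stromal content: 10 fibroblast markers (Col1a1, Dcn, Lum and others) summed to 48.5 and 78.3 FPKM in Sox10+EpCAM+ fMaSC and to 2261 and 3520 FPKM in CD24+CD49f+ fMaSC, against 6573 FPKM in EpCAM-negative stroma and 7363 to 7760 FPKM in CD24low stroma. In the opposite order, 7 epithelial markers summed to 735 and 869 FPKM in Sox10+EpCAM+ fMaSC and 528 and 338 FPKM in CD24+CD49f+ fMaSC, against 2.62 to 6.96 FPKM in stroma. CD24+CD49f+ fMaSC also held the most erythroid transcript, 6870 and 731 FPKM over 6 markers, against 85.3 to 218 FPKM in the other 5 libraries. Its 7 Schwann and glia markers summed to 187 and 131 FPKM, against 43.5 and 56.9 FPKM in Sox10+EpCAM+ fMaSC and 7.54 to 16.0 FPKM in stroma. The 5 adipocyte markers summed to 12.8 to 18.3 FPKM in Sox10+EpCAM+ fMaSC and 227 to 549 FPKM in CD24+CD49f+ fMaSC, against 748 to 1253 FPKM in stroma, and 5 mast cell markers to 3.13 to 24.8 FPKM in fMaSC, against 15.1 FPKM in EpCAM-negative stroma and 252 and 163 FPKM in CD24low stroma. The part of these other cells and of the mitochondrial share in the differences below was not tested, and in bulk libraries fewer cells of a type and less RNA per cell cannot be told apart.

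**Figure D1:**
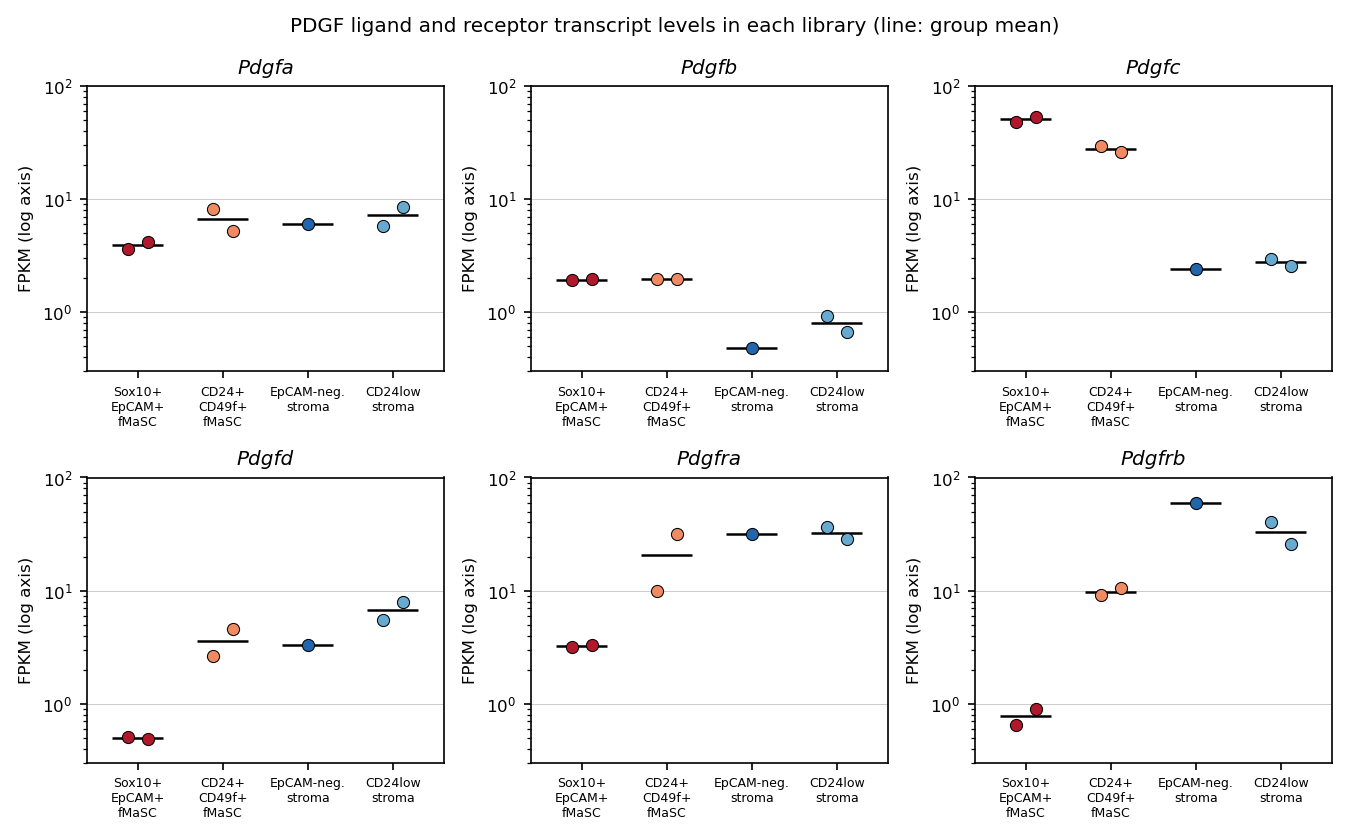
FPKM (log axis) of the 4 PDGF ligand genes and 2 receptor genes in every library, with 1 point per library and a line at each group's mean. Pdgfc lies between 25.8 and 53.1 FPKM in the 4 fMaSC libraries and between 2.42 and 2.98 FPKM in the 3 stroma libraries, while Pdgfrb shows the opposite order.

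Among the ligands, Pdgfc was the abundant epithelial transcript. The gene (ENSMUSG00000028019, GRCm38 chr3:81036416-81214040, plus strand) encodes PDGF-C, which acts mainly through PDGFRα. Pdgfc had 48.2 and 53.1 FPKM in Sox10+EpCAM+ fMaSC and 29.6 and 25.8 FPKM in CD24+CD49f+ fMaSC, against 2.42 FPKM in EpCAM-negative stroma and 2.98 and 2.54 FPKM in CD24low stroma. Every fMaSC library lay above every stroma library. The 250 bases before the RefSeq start sites of Pdgfc, the ligand highest in fMaSC, and of Pdgfra and Pdgfd, a receptor and a ligand lowest in Sox10+EpCAM+ fMaSC, are printed here 5′ to 3′ on the plus strand of GRCm38.p6 (chr3:81036166-81036415, chr5:75152001-75152250 and chr9:6168236-6168485), with matched motifs in capitals.
Pdgfc: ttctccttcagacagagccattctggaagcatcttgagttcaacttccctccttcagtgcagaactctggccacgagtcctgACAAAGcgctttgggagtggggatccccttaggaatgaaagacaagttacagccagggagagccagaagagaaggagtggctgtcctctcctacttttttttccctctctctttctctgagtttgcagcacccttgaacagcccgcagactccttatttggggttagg
Pdgfra: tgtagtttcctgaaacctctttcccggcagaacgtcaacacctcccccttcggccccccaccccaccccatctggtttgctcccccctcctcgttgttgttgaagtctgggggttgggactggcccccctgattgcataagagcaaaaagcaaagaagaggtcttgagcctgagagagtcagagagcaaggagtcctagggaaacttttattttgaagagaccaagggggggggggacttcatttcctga
Pdgfd: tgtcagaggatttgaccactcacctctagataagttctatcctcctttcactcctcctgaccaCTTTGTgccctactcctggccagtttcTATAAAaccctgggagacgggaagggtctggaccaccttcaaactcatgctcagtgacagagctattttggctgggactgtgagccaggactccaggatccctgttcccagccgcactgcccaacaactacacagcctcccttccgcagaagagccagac
On either strand, 5 motifs were searched, namely a SOX core (ACAAAG), a GC box (GGGCGG), an AP-1 site (TGACTCA), an E-box (CAGGTG) and a TATA box (TATAAA). The Pdgfc window held 1 SOX core, 168 bases before the start site. The Pdgfd window held 1 SOX core, written there as CTTTGT, 187 bases before the start and a TATA box at 160 bases, and the Pdgfra window held none of the 5. Of 32851 RefSeq promoters of this length, 16.5% held the SOX core, 32.7% the GC box, 4.46% the AP-1 site, 17.2% the E-box and 12.4% the TATA box. The matches are descriptions of letters, and the GC content of the windows was 50.8% for Pdgfc, 54.4% for Pdgfra and 53.6% for Pdgfd, beside a median of 52.4% over all promoters. The 2 Pdgfa windows, at 66.4% and 72.4% GC, held 1 and 2 GC boxes.

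Pdgfc rose in both sorts. On the log2(FPKM + 1) scale the difference was 3.91 (SE 0.21, 95% interval 3.41 to 4.42) between Sox10+EpCAM+ fMaSC and EpCAM-negative stroma, with an adjusted p of 0.000276 by limma. Between CD24+CD49f+ fMaSC and CD24low stroma it was 2.93 (SE 0.17, 2.52 to 3.35), adjusted p = 0.000505 by limma. With both sorts pooled it was 3.32 (SE 0.22), adjusted p = 0.00024 by limma, and larger than in 99.3% of the 14418 genes tested. These 3 calls held under every alternative run, including the removal of each library in turn. Between the fMaSC fractions themselves, Pdgfc averaged 50.7 ± 3.51 FPKM in Sox10+EpCAM+ fMaSC and 27.7 ± 2.67 FPKM in CD24+CD49f+ fMaSC (SD, n = 2 each). That difference of 0.85 passed limma's threshold (adjusted p = 0.0338), but the call ended in 5 of the 7 removals of a library (all but CD24+CD49f+ fMaSC replicate 1 and EpCAM-negative stroma), with values of 0.75 to 0.94. The EpCAM-negative library and the CD24low libraries differed in Pdgfc by -0.13 (-0.64 to 0.38).

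An antisense transcript, Gm16000, overlaps Pdgfc in the annotation and followed the same order, with 6.05 and 7.03 FPKM in Sox10+EpCAM+ fMaSC and 2.90 and 4.66 FPKM in CD24+CD49f+ fMaSC, against 0.260 FPKM in EpCAM-negative stroma and 0.132 and 0.322 FPKM in CD24low stroma. The sources used here do not say that strand was used in quantification, so reads of the pair cannot be told apart where they overlap. Gm16000 remained below Pdgfc in every library.

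Pdgfb (ENSMUSG00000000489, chr15:79995900-80014808, minus strand) encodes PDGF-B, which binds both receptors and is best known as the endothelial and platelet ligand that recruits pericytes. It was the scarcest ligand in CD24+CD49f+ fMaSC and in stroma. Its level was 1.91 and 1.98 FPKM in Sox10+EpCAM+ fMaSC and 1.96 and 1.94 FPKM in CD24+CD49f+ fMaSC, against 0.482 FPKM in EpCAM-negative stroma and 0.928 and 0.669 FPKM in CD24low stroma. The 4 fMaSC libraries lay close together and above all stroma libraries. The estimated depth behind these levels was 53.3 to 72.7 fragments per kilobase in fMaSC and 13.2 to 27.3 in stroma. The difference was 0.99 (SE 0.19, 0.53 to 1.45) in the Sox10 sort, adjusted p = 0.0129 by limma, and 0.72 (SE 0.15, 0.34 to 1.10) in the CD24 sort, adjusted p = 0.0372 by limma. Pooled, it was 0.83 (SE 0.14), adjusted p = 0.00785 by limma, a call that every removal of a library kept. The CD24-sort call ended without any 1 of 5 libraries (either Sox10+EpCAM+ fMaSC, CD24+CD49f+ fMaSC replicate 1 or either CD24low stroma; differences of 0.61 to 0.82), and the Sox10-sort call ended without either Sox10+EpCAM+ fMaSC library (0.97 to 1.01).

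Markers of the cells best known for Pdgfb were lowest in Sox10+EpCAM+ fMaSC or near the floor throughout. The 8 endothelial markers summed to 4.76 and 5.14 FPKM in Sox10+EpCAM+ fMaSC and 27.5 and 28.7 FPKM in CD24+CD49f+ fMaSC, against 19.2 FPKM in EpCAM-negative stroma and 32.7 and 30.4 FPKM in CD24low stroma. That list was split. In the CD24 sort 1 of the 8 was called higher and 2 lower, beside 7.78% and 2.94% of all genes. Cldn5, the higher, had 9.96 and 7.83 FPKM in CD24+CD49f+ fMaSC, against 1.30 to 3.29 FPKM in stroma. Of the lower, Tek and Esam, Tek had 1.99 and 3.11 FPKM there, against 5.45 to 12.6 FPKM in stroma. The 6 megakaryocyte and platelet markers summed to 2.52 to 4.73 FPKM in fMaSC and 4.44 to 5.72 FPKM in stroma, and 4 of the 6 stayed under 1 FPKM in every library.

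Pdgfa (ENSMUSG00000025856, chr5:138976014-138997370, minus strand) encodes PDGF-A, a ligand of PDGFRα that many embryonic epithelia produce. Its values were 3.59 and 4.20 FPKM in Sox10+EpCAM+ fMaSC, with 8.08 and 5.18 FPKM in CD24+CD49f+ fMaSC, against 6.07 FPKM in EpCAM-negative stroma and 5.82 and 8.50 FPKM in CD24low stroma. The fMaSC and stroma libraries overlapped, with both Sox10+EpCAM+ libraries lowest of the 7. No comparison passed limma's threshold: the pooled difference was -0.28 (95% interval -0.78 to 0.22, adjusted p = 0.345), and it was -0.53 (-1.32 to 0.25, adjusted p = 0.256) in the Sox10 sort. In the CD24 sort it was -0.10 (-0.75 to 0.54, adjusted p = 0.841 by limma), and it lay above 0 without CD24+CD49f+ fMaSC replicate 2 (0.17) or without CD24low stroma replicate 2 (0.13). These intervals do not show that the levels were alike.

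Pdgfd (ENSMUSG00000032006, chr9:6168612-6378843, plus strand) encodes PDGF-D, a ligand of PDGFRβ. It was lowest in Sox10+EpCAM+ fMaSC. Pdgfd had 0.507 and 0.487 FPKM in Sox10+EpCAM+ fMaSC, about 15.1 and 15.6 estimated fragments per kilobase, and 2.62 and 4.55 FPKM in CD24+CD49f+ fMaSC. In stroma it stood at 3.32 FPKM in the EpCAM-negative library and at 5.54 and 7.90 FPKM in the CD24low libraries. Each sort on its own kept fMaSC below its stroma, while CD24+CD49f+ fMaSC replicate 2 exceeded the EpCAM-negative library. The difference was -1.53 (SE 0.32, -2.32 to -0.74) in the Sox10 sort, adjusted p = 0.0182 by limma, and the call ended without either Sox10+EpCAM+ fMaSC library (-1.54 and -1.52). In the CD24 sort it was -0.77 (SE 0.26, -1.41 to -0.12), adjusted p = 0.135 by limma, and passed only without CD24+CD49f+ fMaSC replicate 2 (-1.08, adjusted p = 0.0331). Between the fMaSC fractions it was -1.58, adjusted p = 0.0185 by limma, and the call ended without either Sox10+EpCAM+ library (values of -1.89 to -1.27 over all removals).

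Pooled over the sorts the Pdgfd difference was -1.07 (SE 0.24), adjusted p = 0.0222 by limma. It missed the threshold without any 1 of 5 libraries, namely both Sox10+EpCAM+ fMaSC, CD24+CD49f+ fMaSC replicate 1, EpCAM-negative stroma and CD24low stroma replicate 2, with values of -1.30 to -0.77 over all removals.

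**Figure D2:**
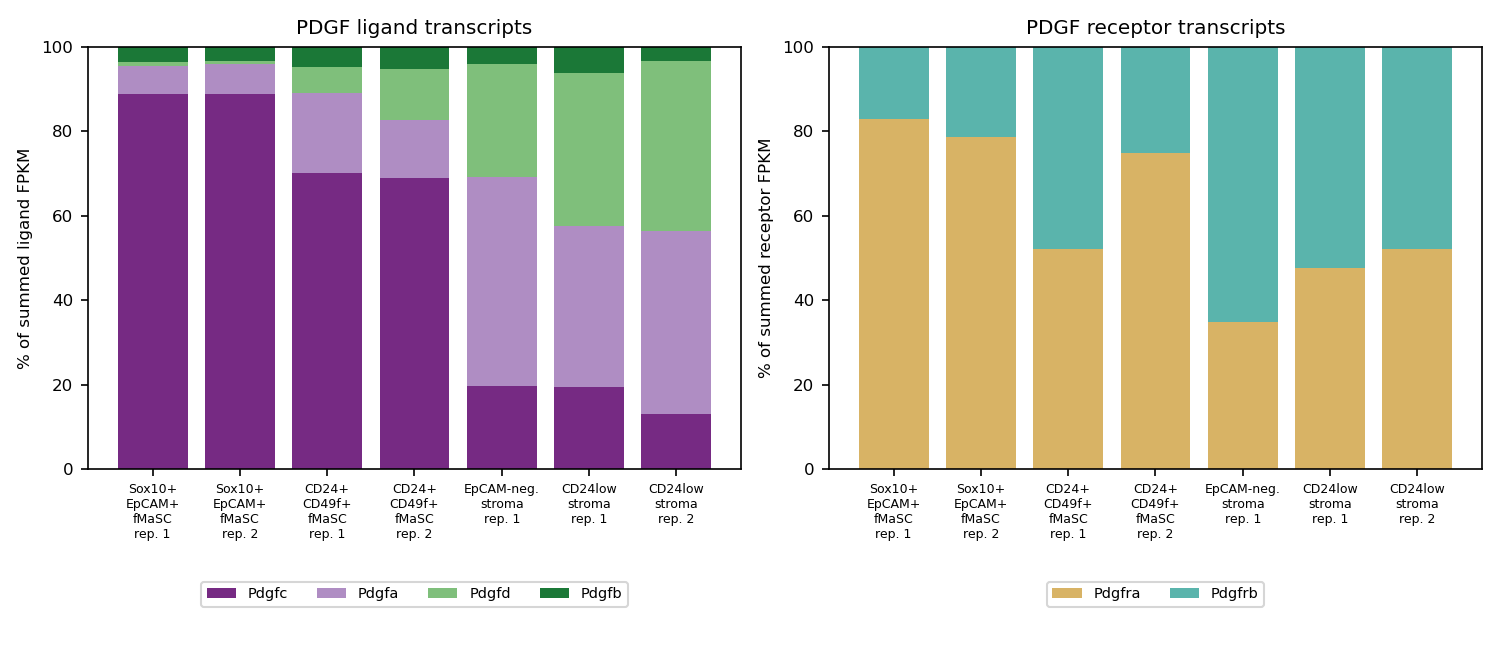
Share (%) of each ligand gene in the summed FPKM of the 4 ligands (left) and of each receptor gene in the summed FPKM of both receptors (right), with 1 bar per library. Pdgfc takes 68.9% to 88.9% of ligand transcript in fMaSC and 13.0% to 19.7% in stroma.

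The ligand genes also differed in their shares of the ligand transcript. Pdgfc made up 88.9% of the summed ligand FPKM in each Sox10+EpCAM+ fMaSC library and 70.0% and 68.9% in CD24+CD49f+ fMaSC, against 19.7% in EpCAM-negative stroma and 19.5% and 13.0% in CD24low stroma. Pdgfd took 0.94% and 0.81% in Sox10+EpCAM+ fMaSC and 6.19% and 12.1% in CD24+CD49f+ fMaSC, against 27.0% in EpCAM-negative stroma and 36.3% and 40.3% in CD24low stroma. Pdgfa was the leading stromal ligand, at 49.4% in EpCAM-negative stroma and 38.1% and 43.4% in CD24low stroma, beside 6.62% to 19.1% in fMaSC. The summed ligand level was 37.5 to 59.8 FPKM in fMaSC and 12.3 to 19.6 FPKM in stroma, so stroma also held ligand transcript. The shares were plotted for each library and given no test.

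Of the receptors, Pdgfra (ENSMUSG00000029231, chr5:75152291-75198204, plus strand) encodes PDGFRα, which binds PDGF-A, PDGF-B and PDGF-C. Pdgfra had 3.17 and 3.29 FPKM in Sox10+EpCAM+ fMaSC and 9.92 and 31.3 FPKM in CD24+CD49f+ fMaSC, against 31.5 FPKM in EpCAM-negative stroma and 36.4 and 28.4 FPKM in CD24low stroma. CD24+CD49f+ fMaSC replicate 2 lay within the stromal range, while replicate 1 and both Sox10+EpCAM+ libraries lay below it. The difference was -2.94 (SE 0.59, -4.39 to -1.49) in the Sox10 sort, adjusted p = 0.0158 by limma, and the call ended without either Sox10+EpCAM+ fMaSC library (-2.96 and -2.92). It was -0.82 (SE 0.49, -2.00 to 0.37) in the CD24 sort, adjusted p = 0.365 by limma, and -1.67 (SE 0.53, -2.92 to -0.41) pooled, adjusted p = 0.0597 by limma. Without CD24+CD49f+ fMaSC replicate 2 those differences were -1.60 and -2.27, and both passed. Without CD24+CD49f+ fMaSC replicate 1 the CD24-sort difference was -0.03. The pooled difference was -0.82 without the EpCAM-negative library, the same as in the CD24 sort. Of the CD24+CD49f+ fMaSC pair, replicate 2 had the higher fibroblast marker sum, 3520 against 2261 FPKM. It also had the lower epithelial sum, 338 against 528 FPKM. It had the lower sums of pericyte markers (78.0 against 94.9 FPKM), smooth muscle markers (33.4 against 119 FPKM) and adipocyte markers (227 against 549 FPKM). The pericyte list was split, with Rgs5, Kcnj8, Mcam, Higd1b and Ndufa4l2 lower in replicate 2 and Abcc9, Notch3, Cspg4 and Anpep higher.

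Pdgfrb (ENSMUSG00000024620, chr18:61045150-61085061, plus strand) encodes PDGFRβ, the receptor for PDGF-B and PDGF-D. It showed the widest relative range of the 6 genes. Pdgfrb had 0.650 and 0.896 FPKM in Sox10+EpCAM+ fMaSC (19.3 and 28.7 estimated fragments per kilobase) and 9.11 and 10.5 FPKM in CD24+CD49f+ fMaSC. Against these it stood at 59.1 FPKM in EpCAM-negative stroma and at 40.1 and 26.0 FPKM in CD24low stroma. No fMaSC library reached the stromal range, and the fMaSC fractions did not overlap each other either. In the Sox10 sort Pdgfrb differed by -5.09 (SE 0.30, interval -5.81 to -4.36), adjusted p = 0.000319 by limma, lower than all but 0.354% of the genes tested, and every alternative kept the call. In the CD24 sort the difference was -1.63 (SE 0.24, -2.22 to -1.03), adjusted p = 0.0113 by limma, and was lost without CD24low stroma replicate 1 (-1.32, adjusted p = 0.0532 by limma). Pooled, it was -3.01 (SE 0.67), adjusted p = 0.0207 by limma, and was lost without Sox10+EpCAM+ fMaSC replicate 2 (-2.81, adjusted p = 0.0587 by limma). Without the EpCAM-negative library the pooled comparison reduced to that of the CD24 sort, for Pdgfrb -1.63.

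**Figure D3:**
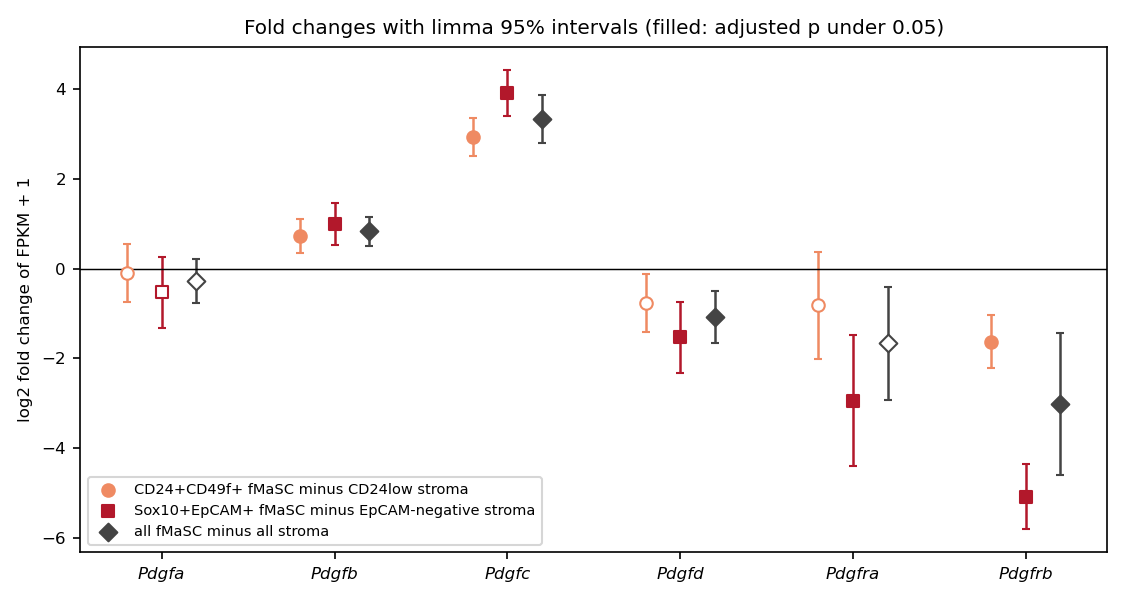
Difference in log2(FPKM + 1), fMaSC minus stroma, of each PDGF gene in the CD24 sort (circles), the Sox10 sort (squares) and both pooled (diamonds), with limma 95% intervals. Filled symbols mark adjusted p under 0.05; Pdgfc and Pdgfb lie above 0 and Pdgfrb below 0 in all 3 comparisons.

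Over the family, 5 of 6 genes passed in the Sox10 sort (2 higher and 3 lower), where 26.1% of all genes tested passed (12.5% higher and 13.6% lower). Of the 6 genes 3 passed in the CD24 sort (2 higher and 1 lower), where 10.7% of all genes did (7.78% higher and 2.94% lower). Pooled, 4 of 6 passed (2 higher and 2 lower), where 25.1% did (15.6% higher and 9.50% lower). Without regard to any fit, 3 of the 6 genes (Pdgfb, Pdgfc and Pdgfrb) had no overlap between the 4 fMaSC and the 3 stroma libraries (2 higher and 1 lower in fMaSC), as had 37.0% of the genes tested (23.3% higher and 13.7% lower). Between the fMaSC fractions 4 of 6 passed (Pdgfc higher, and Pdgfd, Pdgfra and Pdgfrb lower, in Sox10+EpCAM+ fMaSC), against 9.99% of all genes (1.95% higher and 8.04% lower). The Pdgfra difference there was -2.15 (adjusted p = 0.0462 by limma), lost without either Sox10+EpCAM+ fMaSC or either CD24low stroma library (-2.93 to -1.37 over all removals), and that of Pdgfrb was -2.61 (adjusted p = 0.00302 by limma), kept in all. Between the stroma fractions limma called 0 of 6, and 0.0277% of all genes (0.0139% in each direction). At an unadjusted p under 0.05 it called 2 of 6, Pdgfd (-0.82) and Pdgfrb (0.85), and 3.02% of all genes, with EpCAM-negative over CD24low stroma. Leaving out the filter on low levels adds genes to the estimate of the spread and to the adjustment. The differences then stayed the same but these calls ended: Pdgfb and Pdgfrb in the CD24 sort, Pdgfd and Pdgfra in the Sox10 sort, Pdgfd and Pdgfrb pooled, and Pdgfc, Pdgfd and Pdgfra between the fMaSC fractions. With TPM scaling, which put the median of all genes at -0.11 in the CD24 sort, -0.63 in the Sox10 sort and -0.32 pooled, Pdgfb lost its call in all 3 (0.71, 0.78 and 0.74), Pdgfrb in the CD24 sort (-1.95) and Pdgfd pooled (-1.64).

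The fMaSC-stroma difference of Pdgfrb itself differed between the sorts, by -3.46 (SE 0.38, -4.40 to -2.52), adjusted p = 0.021 by limma. It was the 1 gene of the 6 called in this contrast, in which 1.51% of all genes passed (0.0763% higher and 1.44% lower). The call ended (adjusted p of 0.0859 to 0.17 by limma) without either Sox10+EpCAM+ fMaSC library or either CD24low stroma library, with differences of -3.76 to -3.15 over all removals, and also without the filter or with TPM scaling (-4.23). The contrast was -2.12 for Pdgfra (adjusted p = 0.285 by limma), -0.76 for Pdgfd (0.492) and 0.98 for Pdgfc (0.177). In the same contrast 8 of 10 fibroblast markers passed, all lower, with a median of -4.66. Of the 9 pericyte markers 0 passed, with a median of -1.06. The median over all genes tested was -0.03. Pdgfra passed when CD24+CD49f+ fMaSC replicate 1 was left out (-2.91, adjusted p = 0.00789 by limma).

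The pair of receptors was unevenly divided. Pdgfra exceeded Pdgfrb 4.89- and 3.67-fold in FPKM in Sox10+EpCAM+ fMaSC and 1.09- and 2.98-fold in CD24+CD49f+ fMaSC, while the ratio was 0.53 in EpCAM-negative stroma and 0.91 and 1.09 in CD24low stroma. Summed receptor FPKM over summed ligand FPKM was 0.07 in each Sox10+EpCAM+ fMaSC library and 0.45 and 1.12 in CD24+CD49f+ fMaSC, against 7.37 in EpCAM-negative stroma and 5.01 and 2.77 in CD24low stroma. Ligand transcript exceeded receptor transcript in 3 of the 4 fMaSC libraries and in none of the 3 stroma libraries.

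**Figure D4:**
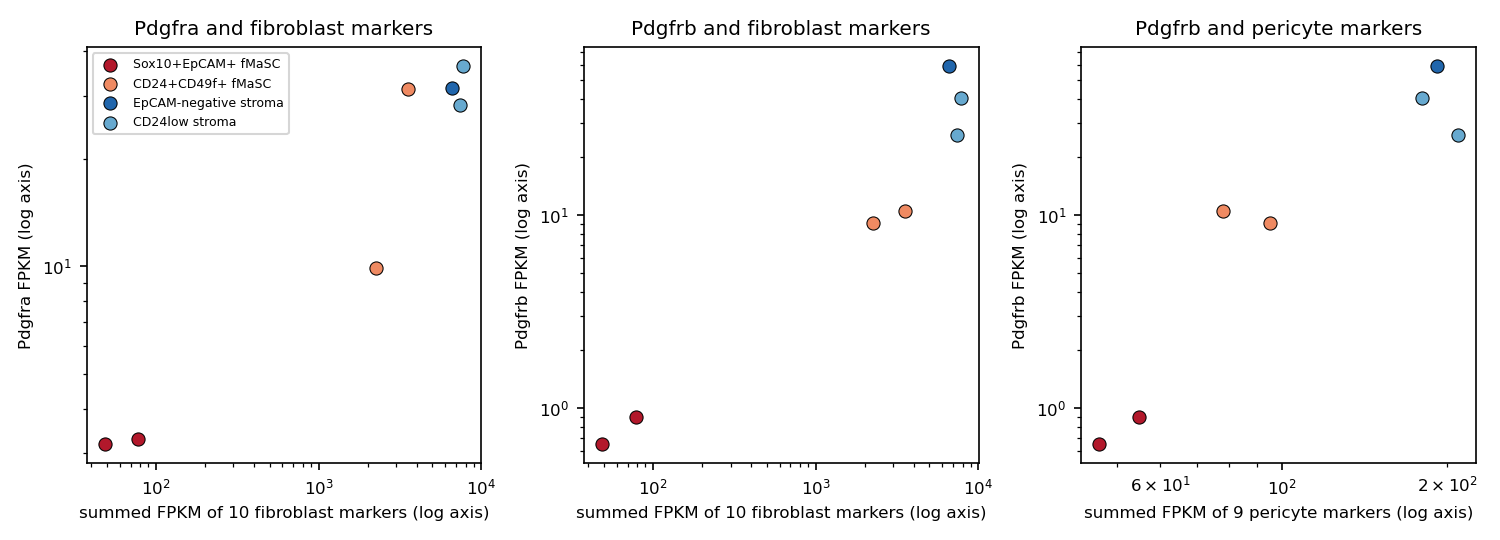
Receptor FPKM against the summed FPKM of 10 fibroblast markers (left and middle) and 9 pericyte markers (right) in each library, all axes logarithmic. CD24+CD49f+ fMaSC (orange) lie between Sox10+EpCAM+ fMaSC (red) and stroma (blue) in both marker sums.

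Both receptors and both stromal marker sums were lowest in Sox10+EpCAM+ fMaSC, but they did not keep 1 order among the other libraries. EpCAM-negative stroma had the highest Pdgfrb and the lowest fibroblast sum of the 3 stroma libraries. Pericyte markers summed to 46.4 and 54.9 FPKM in Sox10+EpCAM+ fMaSC and 94.9 and 78.0 FPKM in CD24+CD49f+ fMaSC, against 191 FPKM in EpCAM-negative stroma and 180 and 209 FPKM in CD24low stroma. Most of the sum in Sox10+EpCAM+ fMaSC was Mcam, with 33.6 and 37.5 FPKM, which was not lower there than in stroma (25.9 to 29.5 FPKM). Rgs5, a marker of pericytes, had 0.29 and 0.68 FPKM in Sox10+EpCAM+ fMaSC and 14.9 and 2.73 FPKM in CD24+CD49f+ fMaSC, against 50.3 FPKM in EpCAM-negative stroma and 35.1 and 56.2 FPKM in CD24low stroma. In the Sox10 sort 10 of 10 fibroblast markers and 8 of 9 pericyte markers passed, all lower in fMaSC, where 13.6% of all genes were called lower. In the CD24 sort 5 of 10 and 4 of 9 passed, all lower, where 2.94% of all genes were called lower.

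The other genes of the pathway were described through lists of their roles. Among 6 proteases that can activate PDGF proproteins, 1 rose and 1 fell in the pooled comparison (16.7% each, beside 15.6% higher and 9.50% lower over all genes), with a list median of 0.32 beside 0.12 over all genes. St14, which encodes matriptase, an epithelial membrane protease shown in human cells to process PDGF-D, had 21.3 and 26.6 FPKM in Sox10+EpCAM+ fMaSC and 14.3 and 12.7 FPKM in CD24+CD49f+ fMaSC, against 0.241 FPKM in EpCAM-negative stroma and 0.118 and 0.026 FPKM in CD24low stroma. St14 was over 10 FPKM in every fMaSC library and under 1 FPKM in every stroma library, and the pooled difference was 3.98 (SE 0.17, adjusted p = 8.31e-05 by limma). Plat, which encodes tissue plasminogen activator, a protease that activates PDGF-C, had 2.47 and 3.55 FPKM in Sox10+EpCAM+ fMaSC and 16.1 and 18.1 FPKM in CD24+CD49f+ fMaSC, against 36.5 FPKM in EpCAM-negative stroma and 43.9 and 35.8 FPKM in CD24low stroma. All fMaSC libraries lay below stroma, and the pooled difference was -2.00 (SE 0.42, adjusted p = 0.0165 by limma). It missed the threshold without Sox10+EpCAM+ fMaSC replicate 2 (adjusted p = 0.0518 by limma), with -2.28 to -1.17 over all removals. Plat was high in the fractions where Pdgfc was low. Plau, urokinase, which activates PDGF-D, had a pooled difference of 0.90 that did not pass (adjusted p = 0.0512 by limma) and rose by 1.68 in the Sox10 sort (adjusted p = 0.00187 by limma), a call that TPM scaling ended (1.03, adjusted p = 0.229 by limma).

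Of 7 extracellular binding proteins and co-receptors, 2 passed in the pooled comparison, both lower (9.50% of all genes), with a median of -1.46. Pdgfrl, a receptor-like gene without a kinase domain, fell by 1.35 (SE 0.19, adjusted p = 0.00456 by limma). Sparc, a matrix protein that binds PDGF-B, fell by 2.32 (SE 0.60, adjusted p = 0.0333 by limma), but the call ended without either Sox10+EpCAM+ fMaSC library, CD24+CD49f+ fMaSC replicate 1, EpCAM-negative stroma or CD24low stroma replicate 1 (-2.70 to -1.18 over all removals). In the Sox10 sort 5 of the 7 fell (13.6% of all genes), among them Nrp1, which encodes the co-receptor neuropilin, with -5.09 (adjusted p = 0.00193 by limma), and Lrp1, a coreceptor of PDGFRβ, with -3.36 (adjusted p = 0.00687 by limma). Of the 7, Pdgfrl fell in the CD24 sort (-1.06, adjusted p = 0.0197 by limma), where 2.94% of all genes were called lower. That call ended in 4 of the 7 removals of a library (either Sox10+EpCAM+ or either CD24low stroma library).

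Among 38 genes of receptor signal transduction 8 rose and 3 fell in the pooled comparison, that is, shares of 21.1% and 7.89%, against the 15.6% and 9.50% of all genes. Their median of 0.15 lay close to the 0.12 over all genes. Those named by size were Slc9a3r1 (2.08), whose product NHERF1 binds the PDGF receptor tail, Pik3cb (1.83), a catalytic subunit of PI3 kinase, the adaptor Nck2 (1.49) and the kinase Src (1.35), with adjusted p of 0.00106 to 0.00124 by limma. Their levels in fMaSC were above stroma in all 4 libraries. All 4 calls were kept in each removal of a library, while TPM scaling ended those of Nck2 (1.06, adjusted p = 0.107 by limma) and Src (0.92, adjusted p = 0.125 by limma).

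Of 10 immediate early genes that PDGF is known to induce, 2 rose and 3 fell in the pooled comparison, beside 15.6% higher and 9.50% lower over all genes, with a median of -0.74. Ccl2 (-2.23), a chemokine, Egr1 (-1.65) and Fosb (-1.18), both transcription factors, fell, with adjusted p of 0.0433 to 0.0496 by limma. Srf (0.73), which encodes serum response factor, rose, adjusted p = 0.0164 by limma. All 4 calls ended without either Sox10+EpCAM+ fMaSC library or the EpCAM-negative library, and those of Ccl2, Egr1 and Fosb also without CD24+CD49f+ fMaSC replicate 1 and without a CD24low stroma library (replicate 2 for Ccl2, replicate 1 for Egr1 and Fosb). Over all removals Ccl2 took values of -2.88 to -1.07, Egr1 of -2.05 to -0.88, Fosb of -1.48 to -0.63 and Srf of 0.64 to 0.86. Of the 10, 5 passed in the Sox10 sort, all lower (13.6% of all genes were called lower there), with a median of -1.38, beside -0.36 in the CD24 sort.

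Of 9 ligands of the related VEGF, KIT, CSF1 and FLT3 receptors 3 passed in the pooled comparison, all lower (9.50% of all genes). Figf, which encodes VEGF-D, fell by 2.47 (SE 0.42, adjusted p = 0.00828 by limma). Csf1 fell by 1.82 and Il34 by 1.30, and both are ligands of the CSF1 receptor. Of 3 related receptors that passed the filter on low levels, out of 6, Kit rose by 1.47 (SE 0.37, adjusted p = 0.031 by limma) and Flt1, a VEGF receptor, fell by 0.84 (SE 0.23, adjusted p = 0.0391 by limma). Over all genes 15.6% were called higher and 9.50% lower. The calls of Csf1, Il34, Kit and Flt1 ended without either Sox10+EpCAM+ fMaSC library, the EpCAM-negative library or a CD24low stroma library (replicate 2 for Kit, replicate 1 for the others), and those of Csf1 and Flt1 also without CD24+CD49f+ fMaSC replicate 1. Over all removals Csf1 took values of -2.35 to -0.98, Il34 of -1.53 to -0.75, Kit of 0.85 to 1.84 and Flt1 of -1.05 to -0.52.

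**Figure D5:**
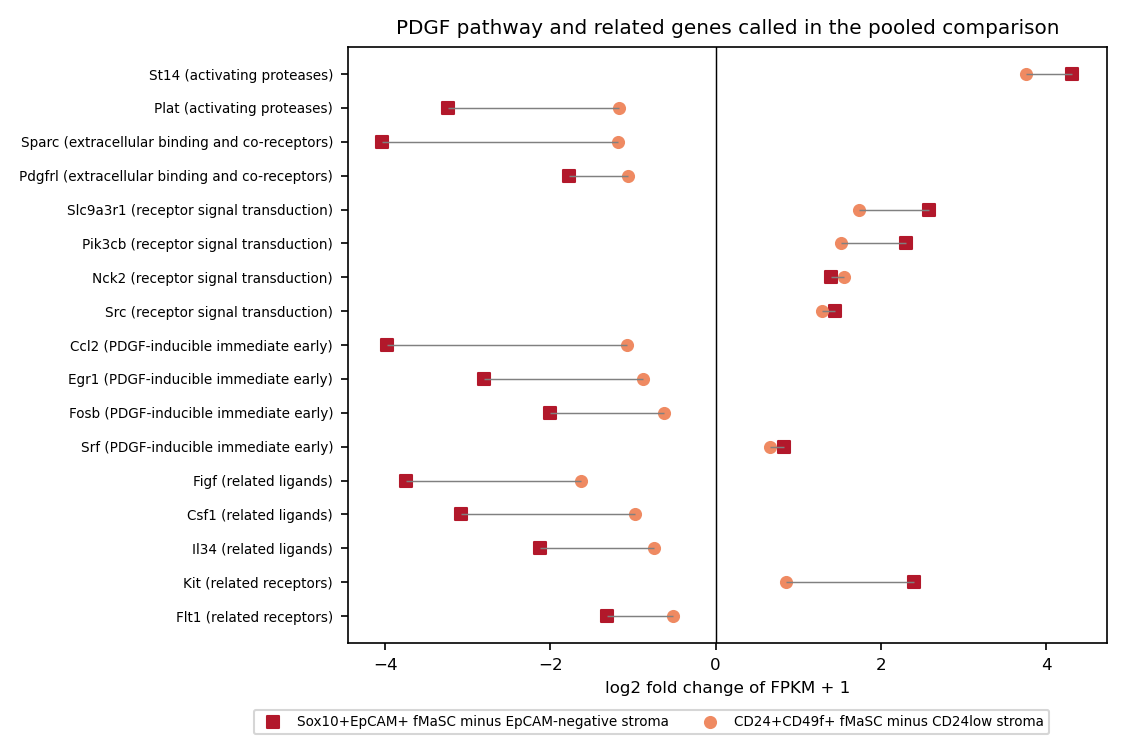
Difference in log2(FPKM + 1), fMaSC minus stroma, in the Sox10 sort (squares) and the CD24 sort (circles) of the 17 pathway and related genes called in the pooled comparison, up to 4 per list. For 16 of the 17, all but Nck2, the square lies farther from 0 than the circle.

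Across the 7 libraries the genes whose log2 levels were most like each PDGF gene were sought among 7680 genes averaging 5 FPKM or more. Pdgfc was closest to Pkp3, Lsr and Plek2 (Pearson's r of 0.999 each), and 651 genes exceeded 0.95. Pdgfb was closest to Rnf130, Sostdc1 and Chac1 (0.990, 0.986 and 0.985), and Pdgfa to Art3, Arl4a and Pccb (0.990, 0.967 and 0.959), with 8 genes over 0.95 for Pdgfa. For Pdgfd the closest were Mtmr6, Slc35f5 and Prrg1 (0.998, 0.995 and 0.995), for Pdgfra Ugcg, Asap1 and Apcdd1 (0.998 each), and for Pdgfrb Mgat1, Marveld1 and Mmp19 (0.997, 0.997 and 0.995). Within the family r was 0.959 between Pdgfb and Pdgfc, 0.934 between Pdgfd and Pdgfra, 0.933 between both receptors and -0.921 between Pdgfc and Pdgfrb. These coefficients describe 7 libraries that fall into epithelial and stromal clusters and share their depth and makeup, and no test was made of them.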

How the data were processed

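RNA was made from sorted cells with Illumina TruSeq kits and sequenced as paired ends of 100 bases, per the labels' protocols. Reads were processed with STAR and Cufflinks on GRCm38/mm10, per the submitters' processing notes, which give no versions. The authors deposited FPKM values for 38587 entries, of which 8 are added sequences left out here. Symbols in the table have altered case, so they were matched without regard to case, and loci were converted to 1-based positions. GENCODE vM21 named 36664 entries (95.0%). RefSeq promoters of 4 of the 6 PDGF genes (Pdgfa, Pdgfc, Pdgfd and Pdgfra) were used for printing or motif search. Pdgfb had no entry among the promoters, and Pdgfrb, on chromosome 18, was left out of this step.

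Values were transformed to log2(FPKM + 1), which understates changes of low genes, after keeping genes at 1 FPKM or more in at least 2 of 7 libraries (14418, all 6 PDGF genes among them). The model was fitted with limma 3.58.1 (R 4.3.3) on the 4 group means, with a trended prior and 3 residual degrees of freedom, or cell type plus sort for the pooled comparison (4 degrees of freedom), with two-sided tests, Benjamini-Hochberg adjustment over all genes tested and a threshold of 0.05. The EpCAM-negative group has 1 library, so its spread is assumed equal to that of the other groups. Counts were not used, and depth was estimated from low values that fell within 0.15 of whole fragments on transcripts of 800 to 6000 bases, so it is approximate. The fit was tested on simulated data. Named pathway genes were up to 4 called per list, the largest first. Lrp1, Nrp1 and Plau, the overlapping Gm16000 and the sort and marker genes were added for their role after values were seen. The members, lists and rules were chosen with earlier results of these data known. Alternatives were another pseudocount (0.1), no filter, TPM, median-of-ratios and quantile scaling, only the compared groups, and leaving out each library. Figures were drawn with matplotlib 3.10.9, and tables made with pandas 2.3.3 and numpy 2.4.6 under Python 3.11.15.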

Additional observations from a re-analysis of the deposited data

Results flagged for a closer look

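Pdgfrb was singled out because its fMaSC-stroma difference was not the same in both sorts by a test of that difference. The Sox10 sort minus the CD24 sort gave -3.46 (SE 0.38, adjusted p = 0.021 by limma), made up of -5.09 in the Sox10 sort and -1.63 in the CD24 sort. Sox10+EpCAM+ fMaSC held 0.650 and 0.896 FPKM and CD24+CD49f+ fMaSC 9.11 and 10.5 FPKM, against 59.1 FPKM in EpCAM-negative stroma and 40.1 and 26.0 FPKM in CD24low stroma. The same contrast was negative for all 10 fibroblast markers, and 8 of them passed the threshold, where 1.44% of all genes were called lower. Of 9 pericyte markers 0 passed, with a median of -1.06. The part of either list in this result was not tested. The call is lost without either Sox10+EpCAM+ fMaSC or either CD24low stroma library.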

How the results depend on the processing

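Pdgfc in both sorts and pooled, and Pdgfrb in the Sox10 sort and between the fMaSC fractions, kept direction and call under all alternatives run. Over the 6 PDGF genes and 6 comparisons, 172 of 204 values under other settings and 192 of 234 with a library left out kept both. TPM scaling put the median difference of all genes at -0.11 (0.13 without it) in the CD24 sort, -0.63 (0.09) in the Sox10 sort, -0.32 (0.12) pooled and -0.51 (-0.03) for the difference between sorts, so TPM values are read against those medians. Where a cause is not given by the setting itself, the cause was not tested.

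In the CD24 sort, TPM scaling gave 590 called genes and a fit on the compared groups alone 785, against 1545. Pdgfb lost its call without the filter (0.72), with TPM (0.71), with quantile scaling (0.53) and with the compared groups alone (0.72), and Pdgfrb without the filter (-1.63) and with TPM (-1.95). In the Sox10 sort, TPM gave 2353 called genes and the compared groups alone 7878, against 3762. There Pdgfa passed with the compared groups alone (-0.53), Pdgfb lost its call with TPM (0.78), and Pdgfd (-1.53) and Pdgfra (-2.94) lost theirs without the filter. Pooled, TPM gave 1781 called genes, against 3621. Pdgfb lost its call with TPM (0.74), Pdgfd without the filter (-1.07) and with TPM (-1.64), and Pdgfrb without the filter (-3.01), while Pdgfra passed with median-of-ratios scaling (-1.80).

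Between the fMaSC fractions, 724 genes passed without the filter, 554 with TPM and 847 with the compared groups alone, against 1440. Calls were lost for Pdgfc without the filter (0.85), with TPM (0.62) and with the compared groups alone (0.85), for Pdgfd without the filter (-1.58) and with TPM (-2.05), and for Pdgfra without the filter (-2.15), with TPM (-2.48), with quantile scaling (-2.07) and with the compared groups alone (-2.15). Pdgfb, not called, changed sign with median-of-ratios (0.0033) and quantile scaling (0.25). Between the stroma fractions, 235 genes passed without the filter and 29 with the compared groups alone, against 4, and uncalled values changed sign for Pdgfa (0.065), Pdgfc (0.078) and Pdgfra (0.25) with TPM and for Pdgfra with quantile scaling (0.0092). For the difference between sorts, a pseudocount of 0.1 gave 421 called genes, TPM 61 and quantile scaling 104, against 218, and Pdgfrb lost its call without the filter (-3.46) and with TPM (-4.23).

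With each library left out in turn, called genes ran from 426 to 2353 in the CD24 sort, 1674 to 5758 in the Sox10 sort, 1563 to 6374 pooled, 269 to 2509 between fMaSC fractions, 0 to 11 between stroma fractions and 4 to 974 for the difference between sorts. In the CD24 sort Pdgfa ran from -0.38 to 0.17, Pdgfb from 0.61 to 0.82, Pdgfd from -1.08 to -0.46, Pdgfra from -1.60 to -0.034 and Pdgfrb from -1.93 to -1.32. In the Sox10 sort Pdgfb ran from 0.97 to 1.01, Pdgfd from -1.54 to -1.52 and Pdgfra from -2.96 to -2.92. Pooled, Pdgfd ran from -1.30 to -0.77, Pdgfra from -2.27 to -0.82 and Pdgfrb from -3.51 to -1.63. Between the fMaSC fractions Pdgfb ran from -0.023 to 0.011, Pdgfc from 0.75 to 0.94, Pdgfd from -1.89 to -1.27 and Pdgfra from -2.93 to -1.37. Between the stroma fractions Pdgfa ran from -0.43 to 0.051 and Pdgfra from -0.20 to 0.15. For the difference between sorts Pdgfra ran from -2.91 to -1.34 and Pdgfrb from -3.76 to -3.15. The EpCAM-negative library cannot be left out of the Sox10 sort, the stroma fractions or the difference between sorts. No paired analysis was possible because the labels number no replicates, and the replicate numbers used here follow the order of the samples and pair none of them. At the estimated depth, Pdgfb in stroma and Pdgfd and Pdgfrb in Sox10+EpCAM+ fMaSC rest on the fewest fragments per kilobase of the PDGF genes (13.2 to 28.7).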
